A study of Homo sapiens with 10 samples.

Results

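The genes for the 4 ERBB receptors (EGFR, ERBB2, ERBB3 and ERBB4) and for 6 ligands of the EGF family (EGF, TGFA, AREG, EREG, HBEGF and BTC) were taken by their symbols from transcriptomes of 2 breast cancer cell lines. All 10 had a row in every sample, among 23426 gene symbols. MDA-MB-468 (MDAMB468 in the labels) is an established line labelled basal, and ZR75-1 (ZR751) is an established line labelled luminal. Each line was kept for 6 h with the solvent DMSO (2 samples) or with 1 µM PKC412 (3 samples), which gives 10 samples in 4 groups. PKC412 (midostaurin) is a staurosporine derivative that inhibits many kinases. Each group stands for 1 cell line, and no label says whether its samples came from separate cultures, so p-values below measure only the spread between these samples, which may be technical. The values are FPKM, in which fragment numbers are set relative to the length of the transcript and the size of the library, and read depth is unknown.

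The ERBB receptors are receptor tyrosine kinases that work as dimers. EGFR binds EGF, TGFA, AREG, EREG, HBEGF and BTC, ERBB3 and ERBB4 bind neuregulins, ERBB4 also binds BTC, EREG and HBEGF, and ERBB2 has no known ligand and serves as the preferred partner of the others. ERBB3 has little kinase activity of its own and passes signals on to PI3 kinase when paired with another receptor. The ligands are made as membrane-bound precursors and are released by metalloproteases, chiefly ADAM17 and ADAM10. In breast cancer ERBB2 is known as HER2, EGFR is often abundant in basal-like tumours, and AREG is an oestrogen-responsive ligand of the mammary gland.

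The lines carried the markers of their labels. All 7 basal markers listed, among them KRT5, KRT14 and KRT17, were higher in every MDA-MB-468 sample than in any ZR75-1 sample, with summed levels of 2611 to 3182 FPKM against 1.31 to 3.42. All 7 luminal markers, among them ESR1, GATA3 and FOXA1, were higher in every ZR75-1 sample, with sums of 7829 to 11370 FPKM against 950.9 to 1837. Markers of leukocytes, fibroblasts and endothelium summed to 14.2 to 24.8 FPKM in MDA-MB-468 and 3.29 to 11.6 in ZR75-1, most of it CD14, a monocyte marker, at 11.7 to 23.3 FPKM in MDA-MB-468 and 0.422 to 1.02 in ZR75-1 (DMSO difference 3.51 on the log2(FPKM + 1) scale, limma adjusted p = 1.673e-06), and COL1A1 in ZR75-1. PTPRC and CD3E, which define leukocytes and T cells, were at no more than 0.0651 and 0.0512 FPKM. Summed FPKM ran from 599228 to 835069 per sample. Of 20 genes that every cell uses, 1 was listed near 0, HSP90AB1, at 3.72e-21 to 5.30 FPKM in MDA-MB-468 and 3.51e-17 to 0.004538 in ZR75-1. It was thus near 0 in every ZR75-1 sample, so a value near 0 may be a failed estimate, also throughout a line. Fewer cells of a type and less RNA per cell cannot be told apart in such bulk samples.

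The receptors split the lines. EGFR was the most abundant member in MDA-MB-468 and was near the floor in ZR75-1, whereas ERBB2 and ERBB3 were several times more abundant in ZR75-1, and ERBB4 was at most 0.119 FPKM anywhere. EGFR (chr7:55019021-55211628 on the plus strand of GRCh38, GENCODE annotation) stood at 25.8 and 28.9 FPKM in the MDA-MB-468 DMSO samples and at 66.9, 31.5 and 44.2 under PKC412. In ZR75-1 it stood at 0.802 and 0.113 FPKM in DMSO and at 0.0734, 0.0933 and 0.226 under PKC412. Every MDA-MB-468 sample was far above every ZR75-1 sample, and within ZR75-1 one DMSO sample was higher than the other 4. Ranked among all genes tested, EGFR lay at percentiles 83.1 to 91.1 in MDA-MB-468 and 9.98 to 40.4 in ZR75-1. The ratio of mean FPKM in DMSO was 59.8 for MDA-MB-468 over ZR75-1, and it was 242 without ZR75-1 DMSO replicate 1 and 34.1 without replicate 2. On the log2(FPKM + 1) scale, which shrinks differences of low genes, the DMSO difference was 4.32 with a standard error of 0.345 (limma, Benjamini-Hochberg adjusted p = 2.687e-05 over 16071 genes).

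ERBB2 (chr17:39687914-39730426, plus strand), the orphan partner, was at 7.92 and 7.63 FPKM in MDA-MB-468 with DMSO and at 9.84, 9.46 and 10.2 with PKC412. In ZR75-1 it was at 48.9 and 46.8 FPKM with DMSO and at 58.8, 70.3 and 68.9 with PKC412. All ZR75-1 samples were above all MDA-MB-468 samples, and in each line all PKC412 samples were above both DMSO samples on FPKM as deposited. The ratio of mean FPKM in DMSO was 6.16 for ZR75-1 over MDA-MB-468, and the log2(FPKM + 1) difference, MDA-MB-468 minus ZR75-1, was -2.48 (SE 0.117, limma adjusted p = 1.748e-06). ERBB3 (chr12:56076799-56103505, plus strand), the partner with little kinase activity, was at 7.42 and 7.22 FPKM in MDA-MB-468 with DMSO and at 8.15, 8.14 and 7.84 with PKC412. In ZR75-1 ERBB3 was at 27.7 and 25.0 FPKM with DMSO and at 19.6, 23.7 and 22.7 with PKC412. The lines did not overlap, and the ZR75-1 PKC412 samples were all below the DMSO samples on FPKM as deposited. The DMSO ratio was 3.6 for ZR75-1 over MDA-MB-468 and the log2(FPKM + 1) difference was -1.71 (SE 0.126, limma adjusted p = 1.713e-05). ERBB4 (chr2:211375717-212538841, minus strand), a neuregulin receptor, was listed at 0 in all 5 MDA-MB-468 samples and at 0.0247, 0.0324, 0.0524, 0.0205 and 0.119 FPKM in ZR75-1. It stayed under the limit of a mean of 0.1 FPKM in every group and was not tested.

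**Figure D1:**
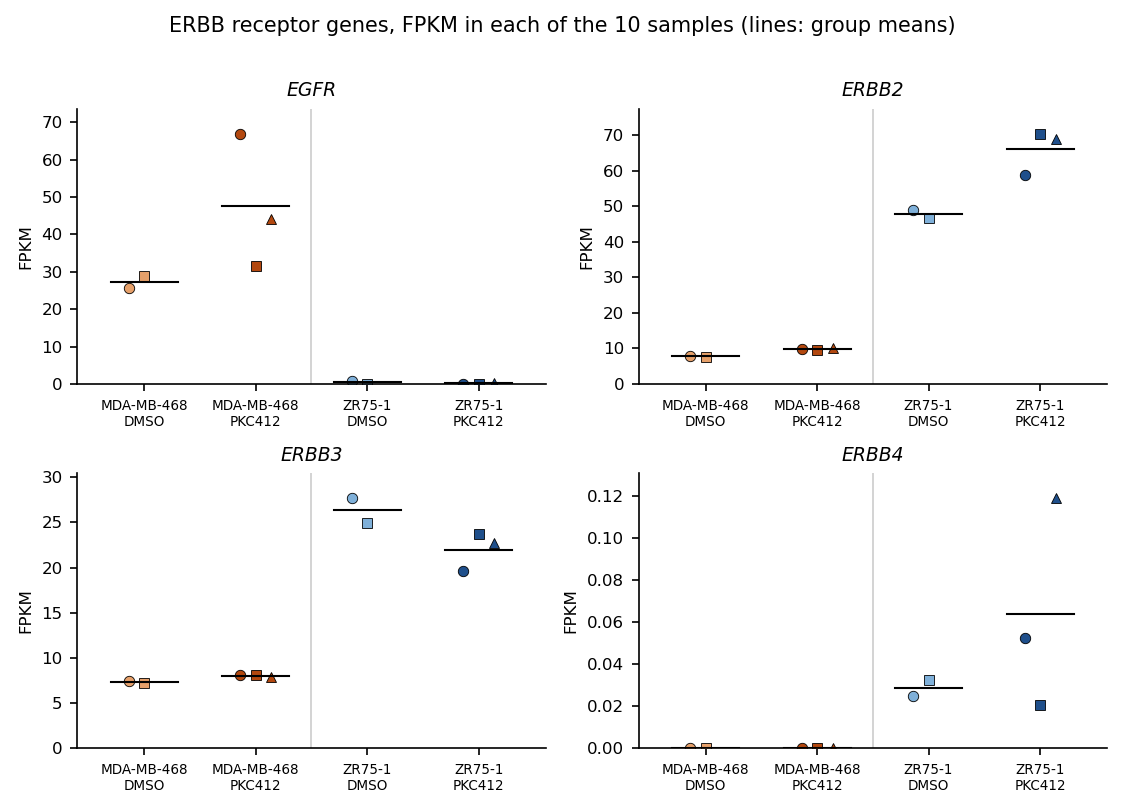
FPKM (vertical axes, linear, starting at 0, a scale of its own for each gene) of EGFR, ERBB2, ERBB3 and ERBB4 in the 4 groups, 1 point per sample (circle, square and triangle for replicates 1, 2 and 3) and a line at the group mean. EGFR lies at 25.8 FPKM or more in MDA-MB-468 and at 0.802 or less in ZR75-1, ERBB2 on this scale, before any rescaling, is above its DMSO points in all PKC412 samples of each line, and ERBB4 does not exceed 0.119 FPKM.

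As a share of the summed FPKM of the 4 receptors, a measure within a sample that does not depend on how samples were scaled, EGFR took 68.6% ± 6.55 (SD, n = 5) in MDA-MB-468 and 0.326% ± 0.401 (n = 5) in ZR75-1, the latter 0.149% without ZR75-1 DMSO replicate 1. In MDA-MB-468 ERBB2 took 16.8% ± 3.17 and ERBB3 14.7% ± 3.48. In ZR75-1 they took 70.6% ± 5.91 and 29% ± 5.66. The receptor sum itself was 41.1 to 84.9 FPKM in MDA-MB-468 and 71.9 to 94.2 in ZR75-1, ranges that overlap. The lines thus differed in which receptors made up the sum in every sample, with EGFR the largest part in each MDA-MB-468 sample and ERBB2 in each ZR75-1 sample.

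The ligands also divided by line. AREG, the amphiregulin gene, was the most abundant ligand in ZR75-1. In MDA-MB-468 it overlapped with TGFA and HBEGF with DMSO and stood above both without overlap with PKC412. HBEGF, whose product binds heparin, and TGFA were higher in MDA-MB-468. EGF was low in MDA-MB-468 and reached 3.36 FPKM in ZR75-1, and BTC and EREG were low in both lines. AREG (chr4:74445134-74455009, plus strand) was at 3.29 and 4.24 FPKM in MDA-MB-468 with DMSO and at 9.0, 8.28 and 8.88 with PKC412. In ZR75-1 AREG was at 15.5 and 31.0 FPKM with DMSO and at 18.4, 18.1 and 21.0 with PKC412. The MDA-MB-468 groups did not overlap, while the ZR75-1 PKC412 samples fell between the pair of DMSO samples, which were 2-fold apart. The DMSO ratio was 6.17 for ZR75-1 over MDA-MB-468 (4.10 without ZR75-1 DMSO replicate 2), with a log2(FPKM + 1) difference of -2.27 (SE 0.277, limma adjusted p = 0.0002874). The annotation of that time held a near-identical copy, AREGB, which has no row of its own here, and how reads that match both were counted is not given in the sources used here, so the level of AREG is uncertain in all samples.

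HBEGF (chr5:140332843-140346631, minus strand) was at 3.04 and 3.33 FPKM in MDA-MB-468 with DMSO and at 5.37, 4.43 and 4.73 with PKC412. In ZR75-1 it was at 0.306 and 0.476 FPKM with DMSO and at 0.824, 0.771 and 0.932 with PKC412. The lines did not overlap, and PKC412 samples were above DMSO samples in each line. The DMSO ratio was 8.14 for MDA-MB-468 over ZR75-1, and the log2(FPKM + 1) difference was 1.59 (SE 0.149, limma adjusted p = 6.616e-05). TGFA (chr2:70447280-70554193, minus strand), a high-affinity EGFR ligand, was at 3.02 and 4.06 FPKM with DMSO and 4.77, 2.97 and 3.88 with PKC412 in MDA-MB-468. In ZR75-1 TGFA was at 0.995 and 2.35 FPKM with DMSO and 1.51, 1.11 and 1.88 with PKC412. All MDA-MB-468 samples were above all ZR75-1 samples, but the DMSO difference of 0.80 (SE 0.299) on the log2(FPKM + 1) scale did not pass (limma adjusted p = 0.06156), and the treatment groups overlapped in both lines.

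EGF (chr4:109912884-110012266, plus strand), the founding ligand, was at 0.0786 and 0.127 FPKM with DMSO and at 0.387, 0.275 and 0.371 with PKC412 in MDA-MB-468. In ZR75-1 EGF was at 0.469 and 1.79 FPKM with DMSO and at 1.81, 1.01 and 3.36 with PKC412. Each ZR75-1 sample was above each MDA-MB-468 sample, with a DMSO ratio of 11.0 that became 4.57 without ZR75-1 DMSO replicate 2 and 17.4 without replicate 1, and the log2(FPKM + 1) difference of -0.88 (SE 0.373) did not pass (limma adjusted p = 0.09481). BTC (chr4:74744759-74794686, minus strand), betacellulin, ran from 0 to 0.396 FPKM in MDA-MB-468 and from 0.0268 to 0.270 in ZR75-1, and the lines overlapped. EREG (chr4:74365143-74388751, plus strand), epiregulin, did not exceed 0.0723 FPKM in any sample and was not tested. EREG, AREG and BTC lie within 430 kb of chromosome 4, and only AREG of these 3 exceeded 0.396 FPKM in any sample.

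**Figure D2:**
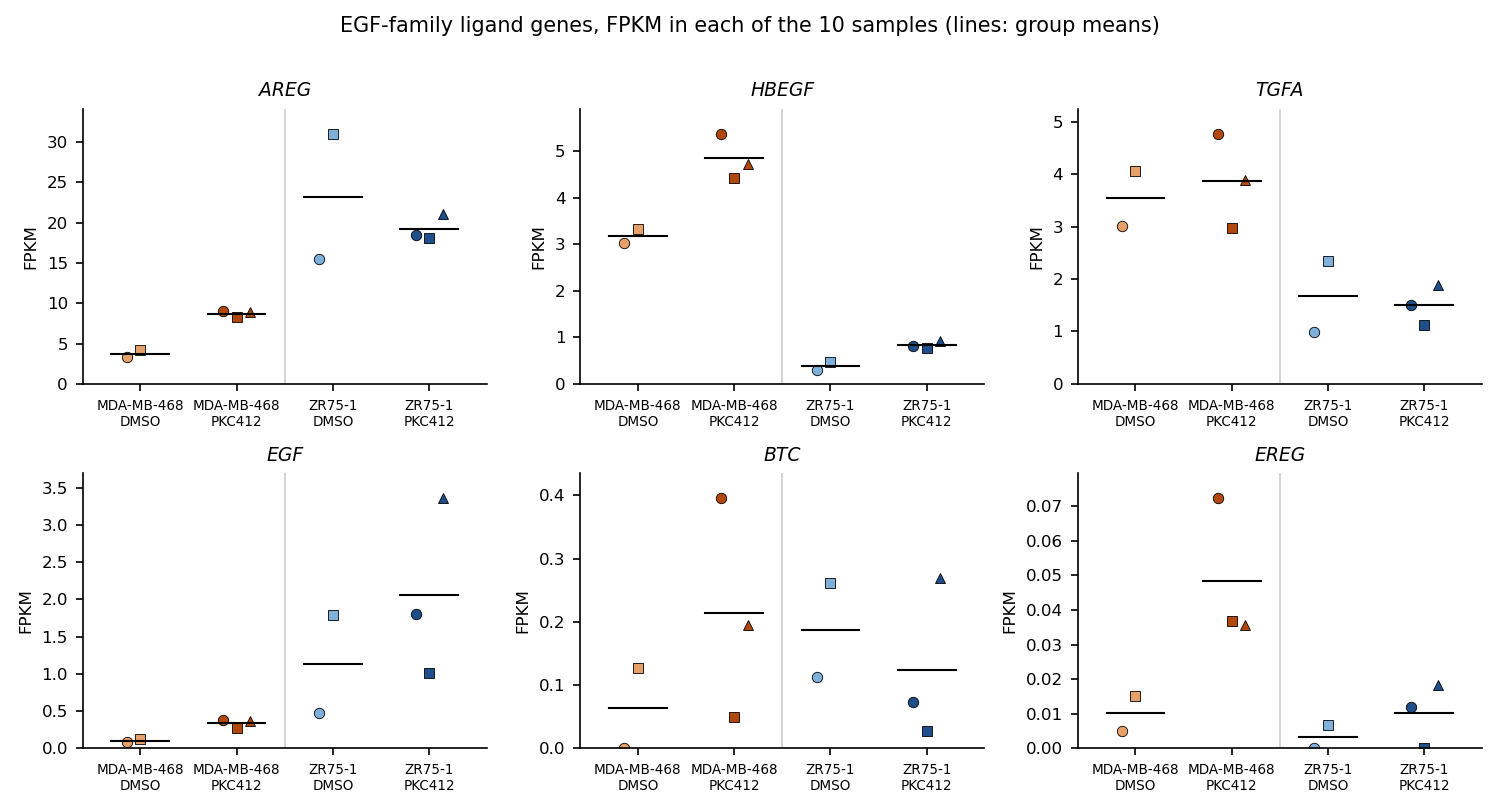
FPKM (vertical axes, linear, starting at 0, a scale of its own for each gene) of the 6 ligand genes in the 4 groups, 1 point per sample (circle, square and triangle for replicates 1, 2 and 3) and a line at the group mean. AREG in MDA-MB-468 goes from 3.29 and 4.24 FPKM with DMSO to 8.28 to 9.0 with PKC412, AREG in ZR75-1 overlaps between treatments with DMSO points at 15.5 and 31.0, and BTC and EREG do not exceed 0.396 FPKM.

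Ordered by mean FPKM in DMSO, MDA-MB-468 had EGFR, ERBB2, ERBB3, AREG, TGFA, HBEGF, EGF, BTC, EREG and ERBB4. In that order AREG, TGFA and HBEGF overlapped with their neighbours, as did EGF, BTC and EREG. ZR75-1 with DMSO had ERBB2, ERBB3, AREG, TGFA, EGF, EGFR, HBEGF, BTC, ERBB4 and EREG, where ERBB3 overlapped with AREG, and each neighbouring pair from TGFA to HBEGF overlapped. With PKC412 in MDA-MB-468 AREG stood above ERBB3 without overlap, where with DMSO it stood below. As shares of the summed FPKM of the 6 ligands, AREG took 43.2% ± 7.66, HBEGF 28.2% ± 2.37 and TGFA 26.0% ± 6.77 in MDA-MB-468 (SD, n = 5). In ZR75-1 AREG took 83.9% ± 5, EGF 6.54% ± 3.70, TGFA 6.22% ± 0.666 and HBEGF 2.76% ± 1.12 (SD, n = 5).

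In DMSO, 5 of the 8 members tested passed limma between the lines, where 42.4% of all genes did, 2 higher in MDA-MB-468 (EGFR and HBEGF) and 3 higher in ZR75-1 (ERBB2, ERBB3 and AREG). Of all genes tested 26.5% were higher and 15.9% lower in MDA-MB-468. Over all 10 samples 3 members were higher in MDA-MB-468 without overlap, against 29.7% of all genes, and 4 were higher in ZR75-1, against 18.1%. Among the 8 genes, 2 higher in MDA-MB-468 by limma was close to the background, and the counts of genes higher in ZR75-1 were above it. Under PKC412 the ratios of mean FPKM between lines were 363 for EGFR (570.2 without ZR75-1 PKC412 replicate 3) and 5.75 for HBEGF (MDA-MB-468 over ZR75-1), and 6.72 for ERBB2, 2.73 for ERBB3 and 2.20 for AREG (ZR75-1 over MDA-MB-468).

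Among the neuregulins, the ligands of ERBB3 and ERBB4, NRG1 was at most 0.0191 FPKM in MDA-MB-468 and 0.368 to 0.692 in ZR75-1, with a DMSO difference of -0.58 on the log2(FPKM + 1) scale (SE 0.0892, limma adjusted p = 0.001078). NRG2 was slightly higher in MDA-MB-468, at 0.139 to 0.212 FPKM against 0.0201 to 0.0629 (difference 0.23, SE 0.0411, limma adjusted p = 0.002502). Genes were tested if the mean was above 0.1 FPKM in at least 1 group. NRG1 met that limit only through ZR75-1 and NRG2 only through MDA-MB-468, so each was let in by the line where it was high. Their p-values are therefore no independent support for a difference between the lines. NRG4 was at 0.141 to 0.283 FPKM and 0 to 0.209, and did not pass (limma adjusted p = 0.1716). NRG3 was listed at 0 in MDA-MB-468 and at no more than 0.0899 FPKM in ZR75-1, and EPGN, the remaining member of the family, has no row.

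By Pearson correlation of log2(FPKM + 1) over the 10 samples, among 11143 genes with a mean above 1 FPKM, the genes most like EGFR were NRAS (r = 0.997), ARHGEF35 (0.997) and ITGB2 (0.996). Those most like ERBB3 were PRRT3, ESPN and FOXA3 (0.994 each), those most like HBEGF were HKR1 (0.998), TTC23 (0.997) and TRIM39 (0.995), and those most like AREG were LMAN2L (0.969), FAM102A (0.968) and C9orf91 (0.967). These values follow mainly the gap between the lines, since the samples share line, library and scaling, and are given as a description. FOXA3, a forkhead transcription factor, was at 31.2 to 63.5 FPKM in ZR75-1 and at no more than 0.0453 in MDA-MB-468. In ZR75-1 its PKC412 samples (36.8, 45.9 and 31.2 FPKM) lay below both DMSO samples (63.5 and 52.6) on FPKM as deposited, as in 6.98% of all genes tested. FOXA3 was picked for its likeness to ERBB3 over these same samples, so an order shared with ERBB3 is no separate result.

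PKC412 samples were compared with DMSO samples within each line. In MDA-MB-468 EGFR, AREG, HBEGF and EGF were higher in every PKC412 sample than with DMSO, as were ERBB2 and ERBB3 on FPKM as deposited but not after the samples were rescaled by median ratios, and AREG had the largest difference on the log2(FPKM + 1) scale. These comparisons use the same DMSO samples as the comparison of the lines. None of the 8 members tested passed limma with an adjusted p under 0.05, where 1.26% of all genes did. An unadjusted p under 0.05 was found for 3 of them (ERBB2, AREG and HBEGF), against 2635 of all 16071 genes tested. Of the 8, 6 were higher in all PKC412 samples than in both DMSO samples (EGFR, ERBB2, ERBB3, EGF, AREG and HBEGF), against 39.6% of all genes tested, and none was lower, against 16.3%. After rescaling 4 of the 8 were higher (EGFR, EGF, AREG and HBEGF), against 27.9% of all genes, and ERBB2 overlapped, at 8.40 and 7.12 with DMSO and 7.51, 8.55 and 8.21 with PKC412. The median difference was 0.29 over the members tested and 0.11 over all genes. Rescaling moved the median of all genes by -0.11, and it moved a gene far above the pseudocount by -0.27, which is the shift that applies to the more abundant members.

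AREG in MDA-MB-468 had mean FPKM of 3.77 ± 0.676 (SD, n = 2) with DMSO and 8.72 ± 0.388 (SD, n = 3) with PKC412, a ratio of 2.32, but the log2(FPKM + 1) difference of 1.03 (SE 0.253) did not pass (limma adjusted p = 0.1204). The fit takes the spread of all 4 groups together, in which the pair of ZR75-1 DMSO values was the widest. The difference was 0.79 after median-ratio rescaling, and with MDA-MB-468 fitted alone the limma adjusted p was 0.06343. Leaving out either ZR75-1 DMSO sample takes the spread of that pair out of the fit, so the p-values of those fits decide nothing. Over all alternatives the difference ran from 0.79 to 1.20. HBEGF went from 3.18 ± 0.208 to 4.84 ± 0.482 FPKM, with a difference of 0.48 (SE 0.136, limma adjusted p = 0.1779) that was 0.26 after rescaling. ERBB2 went from 7.77 ± 0.211 to 9.82 ± 0.352 FPKM, with a difference of 0.30 (SE 0.107, limma adjusted p = 0.2534) that was 0.056 after rescaling.

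EGFR in MDA-MB-468 went from 27.3 ± 2.19 to 47.5 ± 18.0 FPKM, with a difference of 0.71 (SE 0.315, limma adjusted p = 0.3066), and the PKC412 samples ranged widely, from 31.5 to 66.9. The order of the 5 samples in EGFR was the reverse of their order in GC slope, the change in log2 FPKM per 10 percentage points of GC content relative to the line mean, which was 0.373, 0.0573, -0.287, -0.024 and -0.119 in the order of the values given above. The EGFR transcript used has 47.5% GC and 9821 bases, against medians of 49.02% and 2692 bases over all genes matched. After an adjustment for GC content and transcript length EGFR was at 33.7 and 31.5 FPKM with DMSO and at 50.1, 33.9 and 38.6 with PKC412, with a difference of 0.30 (limma adjusted p = 0.5124). After the same adjustment AREG was at 3.79 and 4.13 against 8.65, 7.86 and 8.68 FPKM, and its difference of 0.92 passed (limma adjusted p = 0.02538). On FPKM as deposited AREG, HBEGF and EGF stood in the same sample order as EGFR, and ERBB2, ERBB3 and TGFA did not. The part of GC content or library quality in these differences was not tested. ERBB3 had a difference of 0.12 (SE 0.115) that was -0.12 after rescaling, and EGF had 0.29 (SE 0.340) at levels of at most 0.387 FPKM.

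In ZR75-1 HBEGF was higher in every PKC412 sample than in both DMSO samples, also after rescaling, while ERBB2 was higher and ERBB3 lower on FPKM as deposited and both overlapped after rescaling. None of the 8 members passed limma, where 0.946% of all genes did. An unadjusted p under 0.05 was found for 2 of them (ERBB2 and HBEGF), against 1794 of all 16071 genes tested. Without overlap, 2 members were higher (ERBB2 and HBEGF), against 14.8% of all genes, and 1 was lower (ERBB3), against 6.98%. After rescaling 1 was higher (HBEGF), against 11.1%, and none lower, against 8.01%, with ERBB2 at 68.2 and 47.2 against 60.1, 92.1 and 59.5, and ERBB3 at 38.6 and 25.2 against 20.0, 31.0 and 19.6. After the adjustment for GC content and length ERBB2 and HBEGF did not overlap and ERBB3 did. ERBB2 went from 47.9 ± 1.5 to 66.0 ± 6.31 FPKM, a ratio of 1.38 and a log2(FPKM + 1) difference of 0.45 (SE 0.107, limma adjusted p = 0.1472) that was 0.28 after rescaling. ERBB3 went from 26.3 ± 1.93 to 22.0 ± 2.14 FPKM, a difference of -0.25 (SE 0.115, limma adjusted p = 0.4644) that was -0.42 after rescaling. HBEGF went from 0.391 ± 0.120 to 0.842 ± 0.0822 FPKM, a ratio of 2.15 and a difference of 0.41 (SE 0.136, limma adjusted p = 0.3328). The difference for AREG was -0.19 (SE 0.253) and that for TGFA -0.06 (SE 0.273), and their groups overlapped. EGFR had a mean ratio of 0.286 that rested on ZR75-1 DMSO replicate 1, since the ratio was 1.16 without it.

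**Figure D3:**
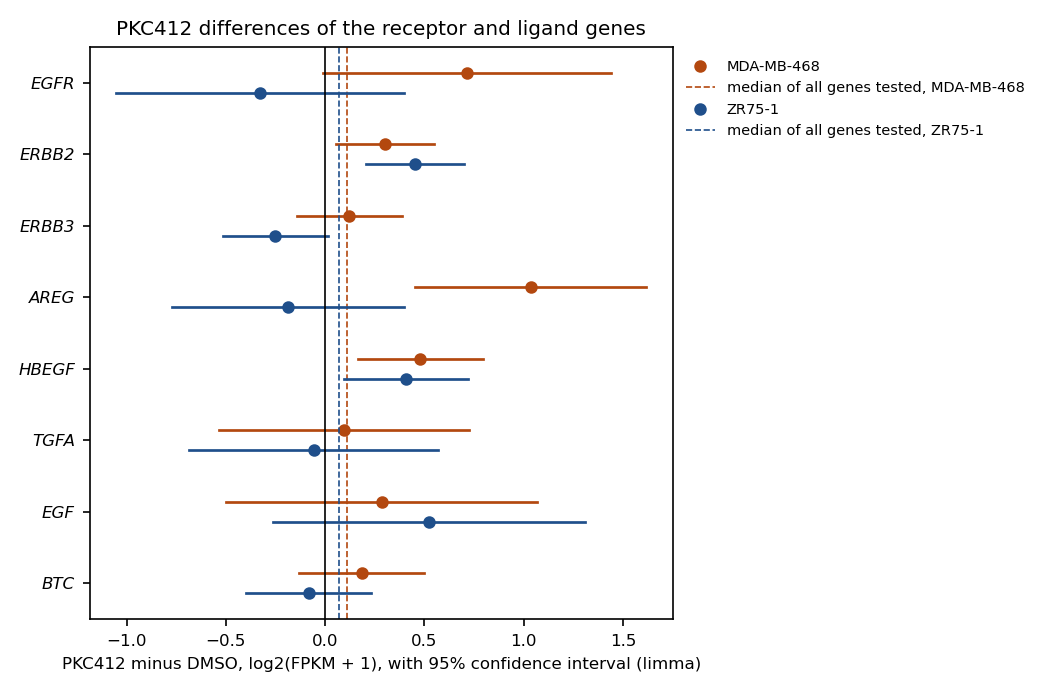
PKC412 minus DMSO on the log2(FPKM + 1) scale (horizontal axis) for the 8 members tested, with 95% confidence intervals from limma, for MDA-MB-468 (brown) and ZR75-1 (blue), and dashed lines at the median of all genes tested. AREG in MDA-MB-468 lies farthest to the right at 1.03, ERBB2 and HBEGF lie right of 0 in both lines, and no member passed the adjusted threshold.

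In both lines at once, 2 of the 8 members (ERBB2 and HBEGF) were higher with PKC412 without overlap, against 6.53% of all genes, and after median-ratio rescaling only HBEGF was, against 4.77%. The difference between the lines in the PKC412 effect passed for none of the 8, against 0.268% of all genes. It was 1.22 for AREG (SE 0.358, limma adjusted p = 0.4016, and 1.70 without ZR75-1 DMSO replicate 1) and 1.04 for EGFR (SE 0.446, limma adjusted p = 0.7077). These were the 2 members with an unadjusted p under 0.05, against 1133 of all 16071 genes tested. For ERBB2 it was -0.15, with a 95% interval from -0.50 to 0.20. By the ratio of mean FPKM without a pseudocount, at least 3-fold up or down, 2 members passed in MDA-MB-468, EGF (3.35) and BTC (3.37), against 7.21% of genes with a mean above 0.1 FPKM in either treatment. For both, the fold rested on DMSO values of at most 0.127 FPKM, and without MDA-MB-468 DMSO replicate 1 the ratios were 2.72 and 1.68. In ZR75-1 EGFR alone of the members passed, against 4.09%.

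ERBB2 was higher relative to ERBB3 with PKC412 in both lines, a comparison chosen after the values had been seen and given with no test. The ratio of ERBB2 to ERBB3 FPKM within a sample was 1.07 and 1.06 with DMSO and 1.21, 1.16 and 1.3 with PKC412 in MDA-MB-468. In ZR75-1 it was 1.77 and 1.88 with DMSO and 3.00, 2.97 and 3.04 with PKC412. Such a ratio does not depend on the scaling of a sample, and the groups did not overlap in either line. In ZR75-1 that follows from ERBB2 being higher and ERBB3 lower without overlap on FPKM as deposited, and it is no separate result. How often the ratio of other gene pairs separates the groups was not computed. Their shares of the receptor sum in ZR75-1 were 64.1% ± 1.35 (SD, n = 2) for ERBB2 and 35.2% ± 0.735 for ERBB3 with DMSO, and 74.8% ± 0.128 (SD, n = 3) and 24.9% ± 0.256 with PKC412. In MDA-MB-468 the share of EGFR went from 64.4% ± 2.36 to 71.3% ± 7.34, with overlapping samples. ERBB2 transcripts have 59.3% GC and those of ERBB3 52.0%, and after the adjustment for GC content and length the ratio was 0.902 and 1.03 against 1.38, 1.16 and 1.37 in MDA-MB-468, and 1.52 and 2.02 against 3.12, 2.57 and 3.64 in ZR75-1. The groups still did not overlap, with a wider spread in ZR75-1. As shares of the ligand sum in MDA-MB-468, AREG went from 35.3% ± 0.537 (n = 2) to 48.6% ± 3.32 (n = 3) and TGFA from 33.1% ± 1.49 to 21.3% ± 2.66. Both shares separated without overlap, while the sum went from 9.43 and 11.9 FPKM to 16.0 to 20.0. The FPKM of TGFA itself overlapped between treatments, and how often other shares separate the groups was not computed. In ZR75-1 the share of AREG was 87.8% ± 1.94 with DMSO and 81.3% ± 4.82 with PKC412.

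**Figure D4:**
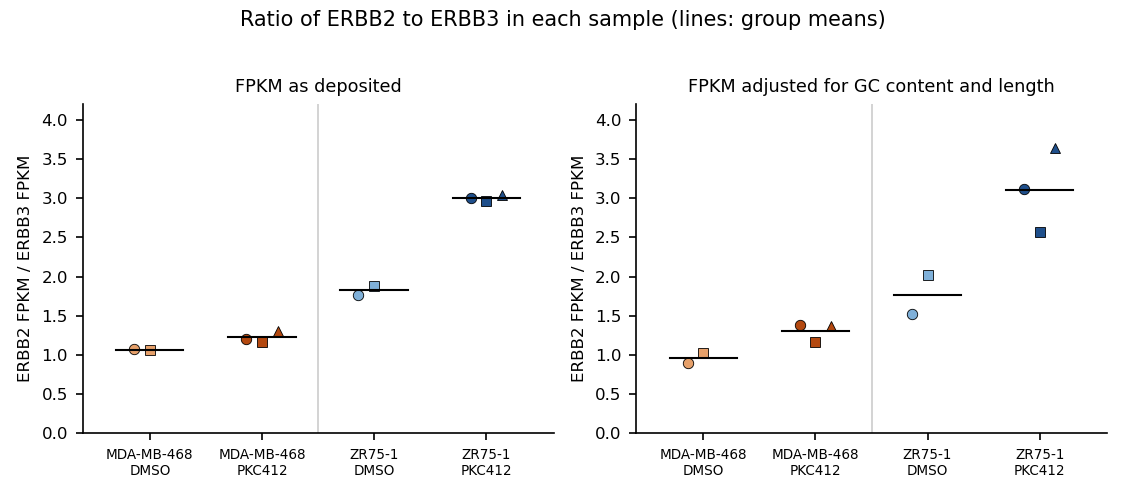
Ratio of ERBB2 to ERBB3 FPKM (vertical axes, linear, starting at 0) in the 4 groups, 1 point per sample with a line at the group mean, from FPKM as deposited (left) and after the adjustment for GC content and length (right). In ZR75-1 the points go from 1.77 and 1.88 to 2.97 to 3.04 on the left, and on the right from 1.52 and 2.02 to 2.57 to 3.64.

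**Figure D5:**
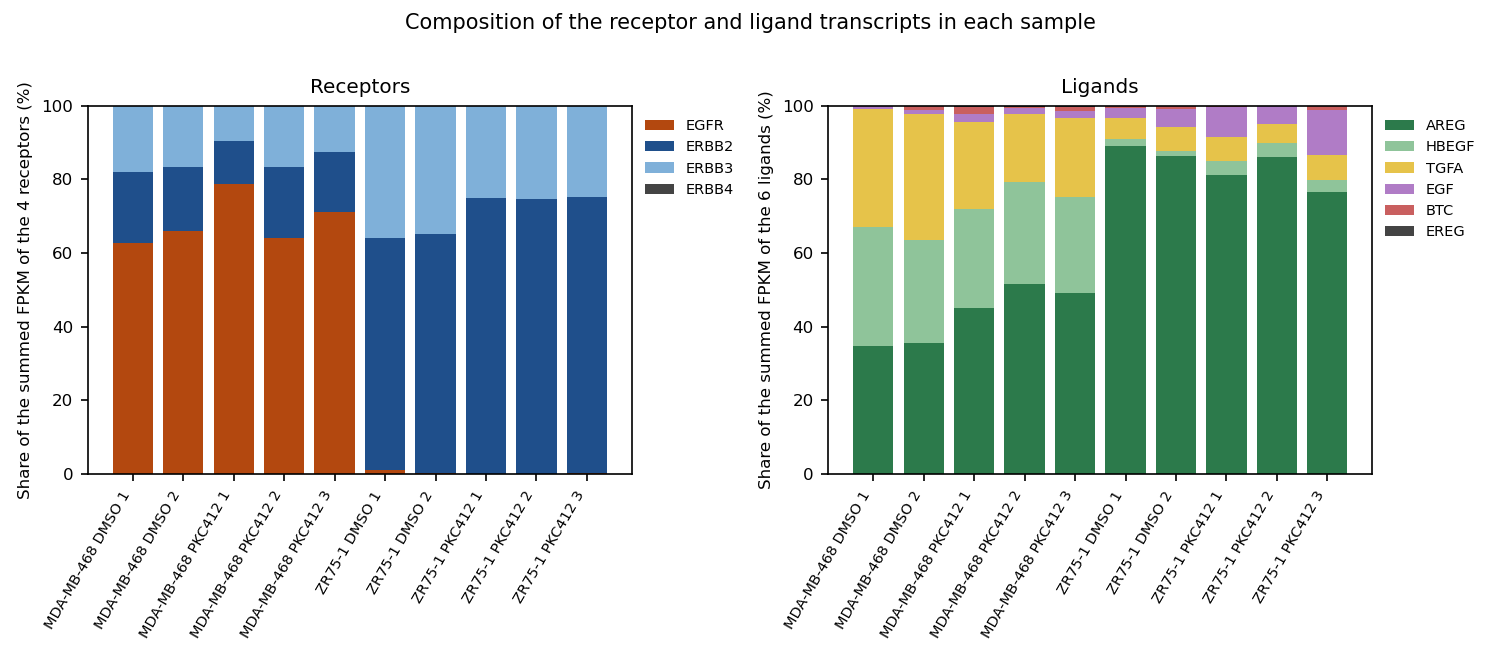
Stacked shares (vertical axes, percent) of the summed FPKM of the 4 receptors (left) and of the 6 ligands (right) in each of the 10 samples. EGFR fills 62.7% to 78.8% of the receptor bars of MDA-MB-468 and at most 1.03% in ZR75-1, and AREG fills 34.9% to 51.6% of the ligand bars of MDA-MB-468 and 76.5% to 89.1% in ZR75-1.

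The stretches just before the transcription starts of EGFR, HBEGF and AREG are shown because EGFR had the largest difference between the lines, AREG the largest with PKC412, and HBEGF was higher with PKC412 in both lines. Of the 10 members, 9 have an entry in the RefSeq promoter table (GRCh38.p14), ERBB3 being the exception. Each line gives the 250 bases before the first RefSeq start, 5′ to 3′ on the gene's strand, with matches to 4 motifs in capitals, searched on both strands. The motifs were the cAMP response element TGACGTCA, found in 1.65% of 35116 promoter windows of this length, the AP-1 site TGANTCA (6.57%), the GC box GGGCGG or its complement CCGCCC (42.6%) and the TATA box TATAAA (10.7%).
EGFR, chr7:55018767-55019016, plus strand: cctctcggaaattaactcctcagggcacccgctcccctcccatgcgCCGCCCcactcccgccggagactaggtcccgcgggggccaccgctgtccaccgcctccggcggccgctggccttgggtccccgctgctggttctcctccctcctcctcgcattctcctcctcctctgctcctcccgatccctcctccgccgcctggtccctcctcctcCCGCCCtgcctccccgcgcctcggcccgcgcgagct
HBEGF, chr5:140346604-140346853, minus strand: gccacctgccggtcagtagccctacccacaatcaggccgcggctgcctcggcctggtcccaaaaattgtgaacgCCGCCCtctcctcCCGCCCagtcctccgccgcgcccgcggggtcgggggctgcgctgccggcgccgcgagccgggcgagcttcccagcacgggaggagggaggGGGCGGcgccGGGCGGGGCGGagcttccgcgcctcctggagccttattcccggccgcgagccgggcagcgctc
AREG, chr4:74444886-74445135, plus strand: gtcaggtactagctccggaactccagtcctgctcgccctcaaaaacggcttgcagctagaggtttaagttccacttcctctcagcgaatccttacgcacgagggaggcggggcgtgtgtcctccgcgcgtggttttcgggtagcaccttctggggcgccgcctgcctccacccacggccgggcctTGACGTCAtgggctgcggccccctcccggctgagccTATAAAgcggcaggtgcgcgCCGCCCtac
The EGFR window shown has 73.6% GC, 2 GC boxes and no match to the other motifs. The window of a second EGFR start, not shown, has 38.8% GC, 2 AP-1 sites and 2 TATA boxes. That of HBEGF has 76.4% GC and 5 GC boxes. That of AREG has 65.2% GC, with a cAMP response element whose first base lies 65 bases before the start, a TATA box at 29 and a GC box at 9. It was the only member window with a match to the cAMP response element, and the neighbouring EREG has a TATA box at 32 bases before its start. A match of letters is a description of the window and was not set against any measure of factor binding.

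The machinery that releases the ligands was followed in a list of 11 genes, ADAM metalloproteases, the iRhoms RHBDF1 and RHBDF2 that guide ADAM17 to the surface, their partner FRMD8, and TIMP3, an inhibitor of ADAM17. Of 10 tested, 3 were higher and 3 lower in MDA-MB-468 than in ZR75-1 with DMSO, against 26.5% and 15.9% of all genes. With PKC412 none passed in MDA-MB-468 (4 of the 10 had an unadjusted p under 0.05, against 2635 of 16071 genes) and 1 rose in ZR75-1, TIMP3. TIMP3 was at 2.92 and 3.41 FPKM with DMSO and 2.02, 1.76 and 1.80 with PKC412 in MDA-MB-468, and at 0.196 and 0.243 against 1.77, 3.67 and 2.61 in ZR75-1. Groups did not overlap in either line, with PKC412 lower in MDA-MB-468 and higher in ZR75-1. The differences on the log2(FPKM + 1) scale were -0.54 (SE 0.211, limma adjusted p = 0.2799) and 1.56 (SE 0.211, limma adjusted p = 0.01815), and their difference of -2.10 (SE 0.298) passed (limma adjusted p = 0.04242). The call in ZR75-1 was lost when that line was fitted alone (adjusted p = 0.4297), and the contrast of both lines was lost after median-ratio rescaling (adjusted p = 0.07093). COL1A1, a fibroblast marker in the list of other cell types, rose in the same comparison, from 2.25 and 2.75 to 9.11, 6.65 and 11.1 FPKM in ZR75-1 (difference 1.49, limma adjusted p = 0.01815), while COL1A2 and COL3A1, the other fibroblast markers of the list, were listed at 0 in all 5 ZR75-1 samples, and the part of fibroblasts in the TIMP3 result was not tested. In MDA-MB-468 PECAM1, an endothelial marker, rose from 0.511 and 0.429 to 0.890, 0.760 and 0.831 FPKM (difference 0.31, limma adjusted p = 0.04036). VWF, the other endothelial marker, was at 0.0284 and 0.0241 with DMSO and 0.0116, 0.0150 and 0.0110 with PKC412, and CD14 was at 23.3 and 20.2 against 11.7, 13.3 and 13.6 (difference -0.71, limma adjusted p = 0.07373).

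Between the lines in DMSO, TIMP3 was higher in MDA-MB-468 by 1.77 (SE 0.231, limma adjusted p = 0.0004205) and RHBDF2 by 0.74 (adjusted p = 0.01108), and RHBDF1 was lower by 1.19, a difference of -1.19 (adjusted p = 0.0003648). RHBDF1 ran from 6.85 to 8.10 FPKM in MDA-MB-468 and from 16.9 to 22.8 in ZR75-1, while RHBDF2 ran from 6.15 to 8.04 and from 3.45 to 5.71. ADAM17, the main sheddase of AREG, HBEGF and TGFA, named here after its values were seen, was at 1.72 and 2.86 FPKM with DMSO and 9.52, 4.11 and 5.91 with PKC412 in MDA-MB-468. Its samples stood in the same order as those of EGFR, which is the reverse of their order in GC slope. Those of ADAM9 and ADAM10 in this list did so too. The order is not particular to these genes. Genes of other lists, among them ERRFI1, CBL, NCK1 and XBP1, had it as well, and others, such as GRB2 and KRT5, did not. The share of all genes with this order was not computed. The ADAM17 difference of 1.15 (SE 0.392) did not pass (limma adjusted p = 0.2426). In ZR75-1 ADAM17 ran from 0.282 to 1.69 FPKM and the treatment groups overlapped.

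Genes that restrain the receptors were a list of 14, all tested, with the feedback inhibitor ERRFI1, the LRIG proteins, the CBL ubiquitin ligases and their adaptors, and the phosphatases PTPN1 and PTPN2. None passed with PKC412 in either line, and 3 and 2 had an unadjusted p under 0.05, the first number for MDA-MB-468. Over all 16071 genes 2635 and 1794 did. In MDA-MB-468 10 of 14 were higher and 1 was lower with PKC412 without overlap, against 39.6% and 16.3% of all genes. These counts are on FPKM as deposited and were not taken after rescaling. The median difference of the 14 was 0.52, which was 0.22 after the adjustment for GC content and length. Between the lines 3 of 14 were higher in MDA-MB-468 and none lower, against 26.5% and 15.9% of all genes, so the higher calls were no more frequent than over all genes. PTPN2, a phosphatase that acts on EGFR, was at 34.4 to 43.5 FPKM in MDA-MB-468 and 3.10 to 9.01 in ZR75-1, a DMSO difference of 2.19 (SE 0.366, limma adjusted p = 0.001618). SH3KBP1, an adaptor of CBL in receptor uptake, differed by 1.84 (SE 0.280, limma adjusted p = 0.0009857) and LRIG2 by 0.54 (SE 0.169, limma adjusted p = 0.03316).

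Adaptors and effectors that dock on the receptors were a list of 24, of which 23 were tested. None passed with PKC412 in either line, and 4 and 2 had an unadjusted p under 0.05, against 2635 and 1794 of 16071 genes. In MDA-MB-468 13 of 23 were higher with PKC412 without overlap and none lower, against 39.6% and 16.3% of all genes. These counts are on FPKM as deposited and were not taken after rescaling. The median difference was 0.36, and it was 0.075 after the adjustment for GC content and length. In DMSO 4 were higher and 2 lower in MDA-MB-468, of 23, which is below the 26.5% and 15.9% of all genes. PLCG2, a phospholipase C, was at 7.34 to 10.3 FPKM in MDA-MB-468 and 0.739 to 1.33 in ZR75-1 (difference 2.21, SE 0.184, limma adjusted p = 3.322e-05). GAB2, a docking protein for PI3 kinase, was higher in MDA-MB-468 by 1.51 (SE 0.244, limma adjusted p = 0.001358), and SHC2 was lower, with a difference of -1.17 (SE 0.252, limma adjusted p = 0.006179). GRB2, the adaptor that couples receptors to RAS signalling and named here after its values were seen, was at 46.8 to 56.3 FPKM in MDA-MB-468 and 45.2 to 70.0 in ZR75-1, and these ranges overlapped.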

How the data were processed

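The authors deposited FPKM per gene symbol, made with an in-house pipeline from TruSeq libraries run on a HiSeq2000. The submitters' processing notes name CASAVA 1.82, TopHat2 and hg19. Read depth is unknown, so precision comes from the spread between samples. Groups were taken from sample titles. Some legends of the study give a lower dose than the labels used here, and its methods describe triplicates, while 2 DMSO samples per line were used here. Differences were tested on log2(FPKM + 1) with limma 3.58.1 in R 4.3.3 (1 mean for each of 4 groups, eBayes with trend, 16071 genes with a mean above 0.1 FPKM in at least 1 group, Benjamini-Hochberg threshold 0.05), after a check on simulated data. In that check 39% of 100 genes with a simulated PKC412 difference of 1 in MDA-MB-468 passed, and 75% of 100 with a difference of 2. Many true differences of this size would therefore not pass. There were 12 false calls with 15795 genes tested, to be read against the changed genes that passed and not against all genes. The simulated noise was drawn for each gene on its own, without shifts shared by a whole library. With 2 samples against 3 an exact permutation test cannot go under 0.1, so none was used. Positions come from GENCODE 29 on GRCh38 by symbol, another build than hg19. The sample orders after rescaling and the adjustment for GC content and length were added after the data had been seen. The adjustment fitted polynomials of degree 3 per sample, with values for 88.1% of symbols. The members and lists were chosen with earlier results of these data known. Named were all members, the other ligands, genes of the 3 lists that passed with PKC412 or, up to 3 per list, differed most between lines, and the 3 genes most like each of 4 members. Alternatives were another pseudocount, other FPKM limits, median-ratio rescaling, eBayes without trend, a replicate block, each line alone and each sample left out.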

Additional observations from a re-analysis of the deposited data

Results flagged for a closer look

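TIMP3 was singled out because its PKC412 effects differed between the lines by a test of the difference itself, -2.10 on the log2(FPKM + 1) scale (limma adjusted p = 0.04242). Over 18 alternatives this difference ran from -3.80 to -1.92 with adjusted p from 0.01732 to 0.8938, and it stayed on the negative side in each of them.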

How the results depend on the processing

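Between the lines in DMSO, EGFR, ERBB2, ERBB3, AREG and HBEGF kept their direction and passed in all alternatives. EGF also passed with a pseudocount of 0.1 (-2.37), after median-ratio rescaling (-0.97), and without ZR75-1 DMSO replicate 1 or PKC412 replicate 3. TGFA also passed after rescaling (0.66) and without ZR75-1 DMSO replicate 2 (1.18). For these contrasts the counts over all genes were within 1.5 times of 6822.

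For PKC412 in MDA-MB-468, 202 genes passed, against 116 with a pseudocount of 0.1, 81 with that line fitted alone, 584 after the GC and length adjustment and 65 to 324 with 1 sample left out. The members that passed were 0, but 1 (AREG) after that adjustment. Higher and lower calls were 111 and 91, and 73 and 99 after rescaling. In ZR75-1, 152 passed, against 12 with the line fitted alone, 450 after the adjustment and 59 to 183 with 1 sample left out. For the difference between the lines, 43 passed, against 27 with a pseudocount of 0.1, 134 with no filter, 68 without the eBayes trend, 214 after the adjustment and 16 to 64 with 1 sample left out, with 0 to 1 members.

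Replicate numbers were not taken to pair the samples, since deviations of same-numbered samples of a line correlated at -0.391 to -0.0223. Across the lines they correlated at 0.289 for DMSO and at -0.0162, 0.211 and 0.047 for PKC412. The DMSO value is the same for both numbers by construction, since 2 samples deviate equally from their mean in opposite directions. With the number as a block, 0 genes passed for PKC412 in MDA-MB-468, 0 in ZR75-1 and 0 for their difference, on 2 residual degrees of freedom, and with the block and the GC adjustment 3, 3 and 0. The block left 6022 genes and the same 5 members between the lines.

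At least 3-fold in MDA-MB-468 were 1078 genes, against 237 with a pseudocount of 1, 613 above 1 FPKM and 646 to 2136 with 1 sample left out. The 2 members became 0 with the pseudocount, 0 above 1 FPKM, 0 after rescaling and 0 to 2 with 1 sample left out. In ZR75-1, 596 genes became 186 with the pseudocount, 295 above 1 FPKM and 490 to 2197, and the 1 member 0, 0 and 0 to 2.

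Signs turned in effects that did not pass. In MDA-MB-468 ERBB3 was -0.12 after rescaling, -0.14 after the GC adjustment and -0.10 with the block added, and TGFA was -0.12, -0.28 and -0.29, and -0.072 to 0.26 with 1 sample left out, its PKC412 samples lying below both DMSO samples after the GC adjustment. In ZR75-1 the leave-one-out ranges were -0.67 to 0.02041 for EGFR, -0.43 to 0.32 for TGFA, -0.67 to 0.29 for AREG and -0.17 to 0.007039 for BTC. For the difference between the lines, EGF was 0.23 with a pseudocount of 0.1, 0.041 with the block and -0.70 to 0.23 with 1 sample left out. HBEGF was -0.37, -0.12 after rescaling and -0.015 to 0.16, and TGFA was -0.072 after the GC adjustment, -0.10 with the block added and -0.22 to 0.53. The cause of these changes was not tested.

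A sum of AREG and AREGB was not run, since AREGB has no row. Read depth is unknown, so how it limits low values could not be given, and with 2 or 3 samples per group a difference that did not pass is not shown to be absent.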
